A study of Mus musculus with 18 samples.

Results

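The genes described here are 36 enzymes, transporters and regulators of glycolysis and of the pathways that branch from it. They were taken from a list of names: 18 genes of glucose transport and glycolysis, 8 of pyruvate and lactate handling, 6 of the pentose phosphate pathway, 2 of the citrate cycle, and the hypoxia regulator Hif1a with its target Bnip3. The names were looked up in the authors' deposited tables and joined by Ensembl identifier to the read counts, and all 36 were found among the 22619 genes of the count table. The name Aldoa is carried by 2 identifiers, and the identifier with 0 to 14 reads per library was left out.

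Glycolysis splits glucose into pyruvate in the cytosol. Pyruvate is then reduced to lactate by lactate dehydrogenase, or oxidised in mitochondria by pyruvate dehydrogenase, which the pyruvate dehydrogenase kinases (PDKs) switch off by phosphorylation. The pentose phosphate pathway leaves glycolysis at glucose 6-phosphate and supplies NADPH and the ribose of nucleotides, and the hypoxia-inducible factor HIF-1 is known to induce many of these genes, Pdk1, Ldha, Aldoc and Bnip3 among them. In the thymus, cells that pass beta-selection at the DN3 stage are known to divide and to raise glucose metabolism, and most cells of the later double-positive (DP) stage are small and no longer divide.

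RNA was sequenced from thymocytes of wild-type mouse thymi that had been transplanted 28 days earlier. DN3 cells (CD4- CD8-, the third double-negative stage) and DP cells (CD4+ CD8+) were sorted by flow cytometry, and libraries were made by the Pico Nextera method from RNA captured on oligo-dT beads. Each cell type was sampled in turnover, with 4 libraries, and in autonomy, with 5 libraries, which gives 4 groups. In turnover, thymocytes are replaced by progenitors that enter the graft, and in autonomy the graft sustains its thymocytes without them. All groups share the wild-type graft and the 28 days; the sources used here do not give the host or the strain, sex and age of the mice. The labels do not say that the libraries of a group come from separate animals, and the turnover libraries RP1140A and RP1140B, like RP1141A and RP1141B, share a number, so a p-value here reflects the spread between libraries, which may be technical.

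Total counts ran from 7426834 to 21808512 in DN3 libraries and from 5032273 to 24191044 in DP libraries. A level below is in CPM, the count of a gene scaled to a common library size and composition, and a log2 change is followed by its standard error (SE). An adjusted p is from the quasi-likelihood test of edgeR with Benjamini-Hochberg adjustment over all genes tested, and "rose", "fell", "higher" or "lower" is used of genes at an adjusted p of at most 0.05. Library values follow a fixed order: RP1140A, RP1140B, RP1141A and RP1141B for turnover; RP1133, RP1134, RP1135, RP1137 and RP1138 for DN3 autonomy; RP1133, RP1135, RP1136, RP1137 and RP1138 for DP autonomy.

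The cell types were apart in DP stage genes but not in the summed level of DN3 markers. A list of 9 DP stage genes summed to 9322 to 10692 CPM in DP libraries and to 1093 to 3200 CPM in DN3 libraries. The DN3 turnover library RP1141B had the 3200 CPM, and the other DN3 turnover libraries 1327 to 1785 CPM. Values of Ldhb, Pfkp, Tpi1, Tkt and Gapdh are given with and without it. A list of 8 DN3 markers summed to 1942 to 4220 CPM in DN3 libraries and 1935 to 3124 CPM in DP libraries, ranges that overlap. Gene by gene, 6 of the 8 (Il2ra, Ptcra, Notch1, Notch3, Hes1 and Dtx1) were lower in DP cells in both conditions, and Rag1 and Rag2 were higher. In bulk libraries such as these, fewer cells of a type and less RNA per cell cannot be told apart. Proliferation genes differed between the conditions, with 14 of 16 S phase genes and 13 of 16 mitosis genes rising in DN3 autonomy, and 1 and 7 falling in DP autonomy. The list of 16 S phase genes summed to 7272 to 8151 CPM in DN3 turnover and 10511 to 14090 CPM in DN3 autonomy, and to 3304 to 4600 CPM in DP turnover and 2089 to 3783 CPM in DP autonomy. The list of 16 mitosis genes summed to 2942 to 3703 CPM in DN3 turnover and 4800 to 7443 CPM in DN3 autonomy, and to 4784 to 7147 CPM in DP turnover and 2029 to 3919 CPM in DP autonomy. Stage genes also moved with the conditions. In DN3 autonomy, 3 of the 9 DP stage genes fell (Cd1d1, Arpp21 and Cd52), and the median log2 change of the 9 was -0.79, beside -0.05 over all genes tested; of the 8 DN3 markers, Dtx1 rose and Hes1 fell. In DP autonomy, 1 of the 7 DN3 markers tested rose (Dtx1), and the median log2 change of the 7 was 0.66, beside -0.02 over all genes tested; of the 9 DP stage genes, Cd8b1 rose. The part of proliferation and of the stage genes in the results below was not tested.

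The promoters of 5 of the 11 members that differed in DN3 cells, chosen after their values were seen, are shown because HIF-1 and Myc, known regulators of this pathway, read short motifs there. RefSeq promoters on GRCm38.p6 were found for 34 of the 36 members, and the 250 bases before each start were searched on both strands for ACGTG and GCGTG, core forms of the hypoxia response element, and for CACGTG, the E-box read by Myc. CACGTG contains ACGTG on both strands, so its sites are counted under both. Each sequence is for the first start listed; Pdk1, Pdk2, Aldoc and Ldha have another start, which was searched but is not printed. Sequences run 5′ to 3′ along the gene's strand to the base before the start, and capitals mark the motifs or their reverse complements.
Pdk1 (chr2:71872974-71873223, plus strand): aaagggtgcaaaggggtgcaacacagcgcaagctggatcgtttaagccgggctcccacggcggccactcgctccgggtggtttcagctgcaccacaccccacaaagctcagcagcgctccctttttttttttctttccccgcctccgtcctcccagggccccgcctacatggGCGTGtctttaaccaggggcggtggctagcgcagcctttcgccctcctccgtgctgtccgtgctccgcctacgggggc
Pdk2 (chr11:95041372-95041621, minus strand): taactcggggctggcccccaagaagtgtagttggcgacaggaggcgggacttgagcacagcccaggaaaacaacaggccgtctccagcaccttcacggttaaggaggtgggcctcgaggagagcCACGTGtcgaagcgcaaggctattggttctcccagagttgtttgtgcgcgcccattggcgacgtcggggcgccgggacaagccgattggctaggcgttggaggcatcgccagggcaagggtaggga
Aldoc (chr11:78322823-78323072, plus strand): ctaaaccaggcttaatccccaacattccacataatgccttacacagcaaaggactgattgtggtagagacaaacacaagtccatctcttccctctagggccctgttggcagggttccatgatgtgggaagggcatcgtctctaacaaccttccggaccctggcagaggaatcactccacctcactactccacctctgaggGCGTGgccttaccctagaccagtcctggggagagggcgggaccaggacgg
Bnip3 (chr7:138909507-138909756, minus strand): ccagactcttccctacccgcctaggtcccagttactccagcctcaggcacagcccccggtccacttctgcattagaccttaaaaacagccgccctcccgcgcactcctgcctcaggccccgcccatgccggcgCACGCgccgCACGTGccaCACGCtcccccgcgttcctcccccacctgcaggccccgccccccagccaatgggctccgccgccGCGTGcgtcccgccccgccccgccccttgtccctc
Ldha (chr7:46845554-46845803, plus strand): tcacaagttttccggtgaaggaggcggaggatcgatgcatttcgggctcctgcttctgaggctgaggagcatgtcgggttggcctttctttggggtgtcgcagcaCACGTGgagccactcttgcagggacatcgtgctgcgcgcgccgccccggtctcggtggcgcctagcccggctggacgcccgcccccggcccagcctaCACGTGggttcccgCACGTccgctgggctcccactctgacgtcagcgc
ACGTG lay in at least 1 promoter of 15 of the 34 members, which is 44.1%, beside 25.5% of the 8882 tested genes with a promoter entry and 18.5% of all 27025 genes with an entry. GCGTG was found for 23 members, or 67.6%, beside 50.4% of tested genes and 30.9% of all genes. CACGTG was found for 7 members, or 20.6%, beside 10.1% and 6.86%. A gene counted if any of its starts matched, so genes with more starts had more chances. The shares were not adjusted for this. Among the 5 promoters printed, those of Pdk2, Bnip3 and Ldha held CACGTG. In DN3 autonomy the transcripts of Pdk2 and Bnip3 fell and that of Ldha rose. The promoters of Slc16a1 and Hif1a, which also differed in DN3 cells but are not printed, held CACGTG too, and both transcripts rose. A match is a description of letters and not a measured binding site.

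The comparison of DN3 libraries asked how these cells differ when the graft sustains itself. In DN3 autonomy, transcripts of Pdk1 and Pdk2, which encode kinases that hold back pyruvate dehydrogenase, fell. Pdk3, the kinase with the largest share of PDK transcripts in DN3 cells, did not pass the test. Those of the aldolase Aldoc and of Bnip3, a receptor for the removal of mitochondria, also fell. Transcripts for a lactate dehydrogenase subunit (Ldha), a lactate and pyruvate transporter (Slc16a1) and a late step of glycolysis (Pgam1) rose. Those of Cs and Idh3a of the citrate cycle, of Hif1a and of the fructose bisphosphatase Tigar rose too. All 36 members passed the filter on low counts: 7 rose, 4 fell and 25 did not pass the test. With the A and B libraries of each number summed, 0 rose and 3 fell. Among the 10766 genes tested, 6.53% rose and 8.35% fell, 14.9% in all. The median log2 change was 0.34 over the members and -0.05 over all genes tested, and 23 members had a change above 0. The groups did not overlap for 10 members, beside 18.3% of all genes tested.

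**Figure D1:**
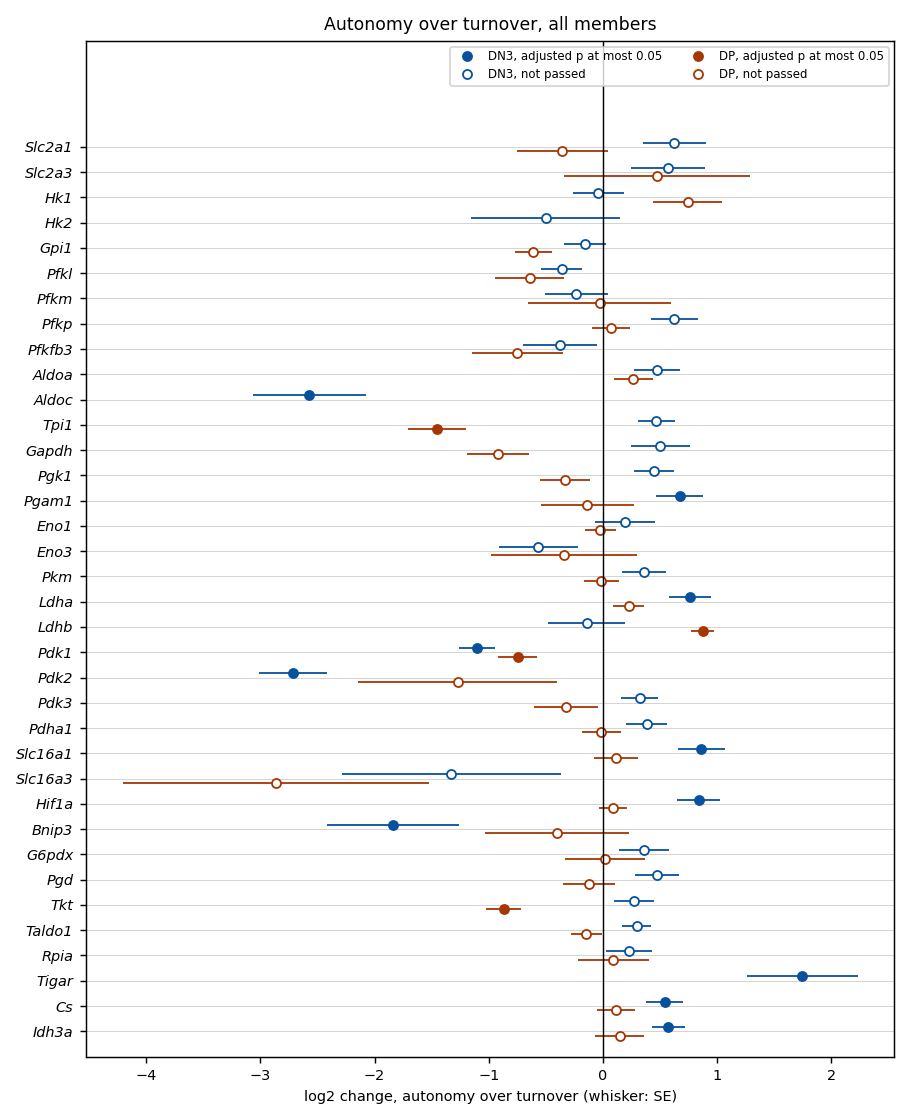
Log2 change of autonomy over turnover for the 36 members (x axis, whisker: SE), in DN3 cells (blue) and DP cells (brown). Filled points are at an adjusted p of at most 0.05, open points are not, and Hk2, Aldoc and Tigar have no DP point because they did not pass the filter on low counts; 7 filled blue points lie right of 0 and 4 left of it.

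Among the genes of glucose transport and glycolysis, 1 of 18 rose and 1 fell in DN3 autonomy. Aldoc, an aldolase isozyme best known from brain, had levels of 7.59, 7.91, 14.8 and 9.51 CPM in turnover and 2.12, 0.892, 3.08, 0.587 and 1.62 CPM in autonomy. Every autonomy library lay below every turnover library, and the log2 change was -2.57 (SE 0.50, adjusted p 0.00525). Pgam1, the phosphoglycerate mutase that turns 3-phosphoglycerate into 2-phosphoglycerate, was at 50.9, 68.8, 59.2 and 45.8 CPM in turnover and 111, 67.2, 66.1, 104 and 102 CPM in autonomy. The lowest autonomy libraries, RP1134 and RP1135, lay just below the highest turnover library, and the log2 change was 0.67 (SE 0.20, adjusted p 0.0419). Of the 16 other genes of this role, 9 had log2 changes above 0 and 7 below. The platelet-type phosphofructokinase Pfkp came nearest to the threshold with a log2 change of 0.62 (SE 0.21, adjusted p 0.0581), followed by triosephosphate isomerase Tpi1 with 0.47 (SE 0.16, adjusted p 0.0673). Without turnover library RP1141B, the log2 change of Pfkp was 0.86 (adjusted p 0.0118). The glucose transporters Slc2a1 and Slc2a3 had log2 changes of 0.62 (SE 0.27, adjusted p 0.139) and 0.57 (SE 0.32, adjusted p 0.247). The hexokinases, which trap glucose in the cell, had log2 changes of -0.04 (SE 0.22) for Hk1 and -0.50 (SE 0.65) for Hk2, and Hk2 stood at only 1.27, 6.09, 2.67 and 1.15 CPM in turnover and 1.06, 0.892, 2.09, 2.82 and 2.98 CPM in autonomy. Aldoa, Gapdh, Pgk1, Eno1 and Pkm, the remaining steps of the lower pathway, had log2 changes of 0.47, 0.50, 0.45, 0.19 and 0.36, with adjusted p from 0.102 for Pgk1 to 0.646 for Eno1. Gpi1, Pfkl, Pfkm, Pfkfb3 and Eno3 had log2 changes of -0.16, -0.36, -0.23, -0.37 and -0.56, with adjusted p from 0.194 for Pfkl to 0.599 for Pfkm.

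At the pyruvate branch point, 2 of 8 members rose and 2 fell in DN3 autonomy. Pdk1 was at 72.6, 79.5, 69.0 and 80.4 CPM in DN3 turnover and 35.2, 30.6, 42.8, 32.6 and 35.1 CPM in DN3 autonomy. The groups were far apart, and the log2 change was -1.10 (SE 0.16, adjusted p 0.00125). Pdk2, a PDK isozyme found in most tissues, was at 20.8, 20.5, 18.6 and 22.3 CPM in turnover and 3.98, 2.38, 4.47, 2.47 and 2.40 CPM in autonomy. Every autonomy library lay far below the lowest turnover library, and the log2 change was -2.71 (SE 0.30, adjusted p 0.000234). Pdk3, the third kinase measured, did not pass the test: it stood at 133, 95.4, 142 and 120.5 CPM in turnover and 175, 123, 145, 177 and 154 CPM in autonomy, groups that overlap, with a log2 change of 0.32 (SE 0.16, adjusted p 0.191). Pdha1, the catalytic subunit that these kinases act on, had a log2 change of 0.38 (SE 0.18, adjusted p 0.159). Ldha, the lactate dehydrogenase subunit that favours lactate formation, was at 1660, 1377, 2061 and 1639 CPM in turnover and 3269, 2578, 2007, 3289 and 3255 CPM in autonomy. Autonomy library RP1135 fell within the turnover range and the other 4 lay above it, and the log2 change was 0.76 (SE 0.18, adjusted p 0.0152). Slc16a1, which encodes the lactate and pyruvate transporter MCT1, was at 153, 103, 195 and 176 CPM in turnover and 291, 351, 209.5, 309.8 and 274 CPM in autonomy. The groups were apart, and the log2 change was 0.86 (SE 0.20, adjusted p 0.015). The transporter Slc16a3 (MCT4) was scarce at 1.19, 1.33, 1.19 and 1.23 CPM in turnover and 1.24, 0, 0, 0.939 and 0.261 CPM in autonomy, with a log2 change of -1.33 (SE 0.96, adjusted p 0.366). Ldhb, the subunit that favours lactate oxidation, had a log2 change of -0.14 (SE 0.34, adjusted p 0.813). Its direction turned without turnover library RP1141B, where the log2 change was 0.43 (adjusted p 0.24).

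The hypoxia regulator and its target moved in opposite directions in DN3 autonomy. Hif1a, the oxygen-sensitive subunit of HIF-1, was at 334, 311, 300.4 and 351 CPM in turnover and 819.9, 429, 509, 689 and 474 CPM in autonomy. Every autonomy library lay above the turnover range, and the log2 change was 0.84 (SE 0.19, adjusted p 0.0115). Bnip3 was low throughout, at 6.01, 4.48, 3.51 and 8.12 CPM in turnover and 1.06, 3.12, 2.09, 1.06 and 0.522 CPM in autonomy. The groups did not overlap, and the log2 change was -1.84 (SE 0.58, adjusted p 0.049). HIF-1 is controlled largely through the stability of the Hif1a protein, which these data do not measure.

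All 6 pentose phosphate members had log2 changes above 0 in DN3 autonomy, and 1 passed the test. Tigar, a phosphatase that lowers fructose 2,6-bisphosphate and so favours the pentose phosphate pathway, was at 1.34, 1.82, 2.60 and 2.87 CPM in turnover and 3.45, 11.2, 8.35, 4.58 and 8.93 CPM in autonomy. Levels were low without overlap, and the log2 change was 1.75 (SE 0.48, adjusted p 0.0297). G6pdx and Pgd, the NADPH-producing dehydrogenases, had log2 changes of 0.36 (SE 0.22, adjusted p 0.283) and 0.48 (SE 0.19, adjusted p 0.111). The non-oxidative enzymes Tkt, Taldo1 and Rpia had log2 changes of 0.27, 0.30 and 0.23, and Taldo1 came nearest to the threshold (SE 0.13, adjusted p 0.126).

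Both citrate cycle members rose in DN3 autonomy. Cs, the citrate synthase that opens the cycle, was at 272, 280.3, 287 and 218 CPM in turnover and 472, 349.5, 289.7, 413 and 413 CPM in autonomy. The groups touched without overlap, and the log2 change was 0.54 (SE 0.16, adjusted p 0.0386). Idh3a, the catalytic subunit of the NAD-dependent isocitrate dehydrogenase, was at 223, 263, 256 and 252 CPM in turnover and 387, 346, 288, 403 and 435 CPM in autonomy. The groups did not overlap, and the log2 change was 0.57 (SE 0.15, adjusted p 0.0208).

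**Figure D2:**
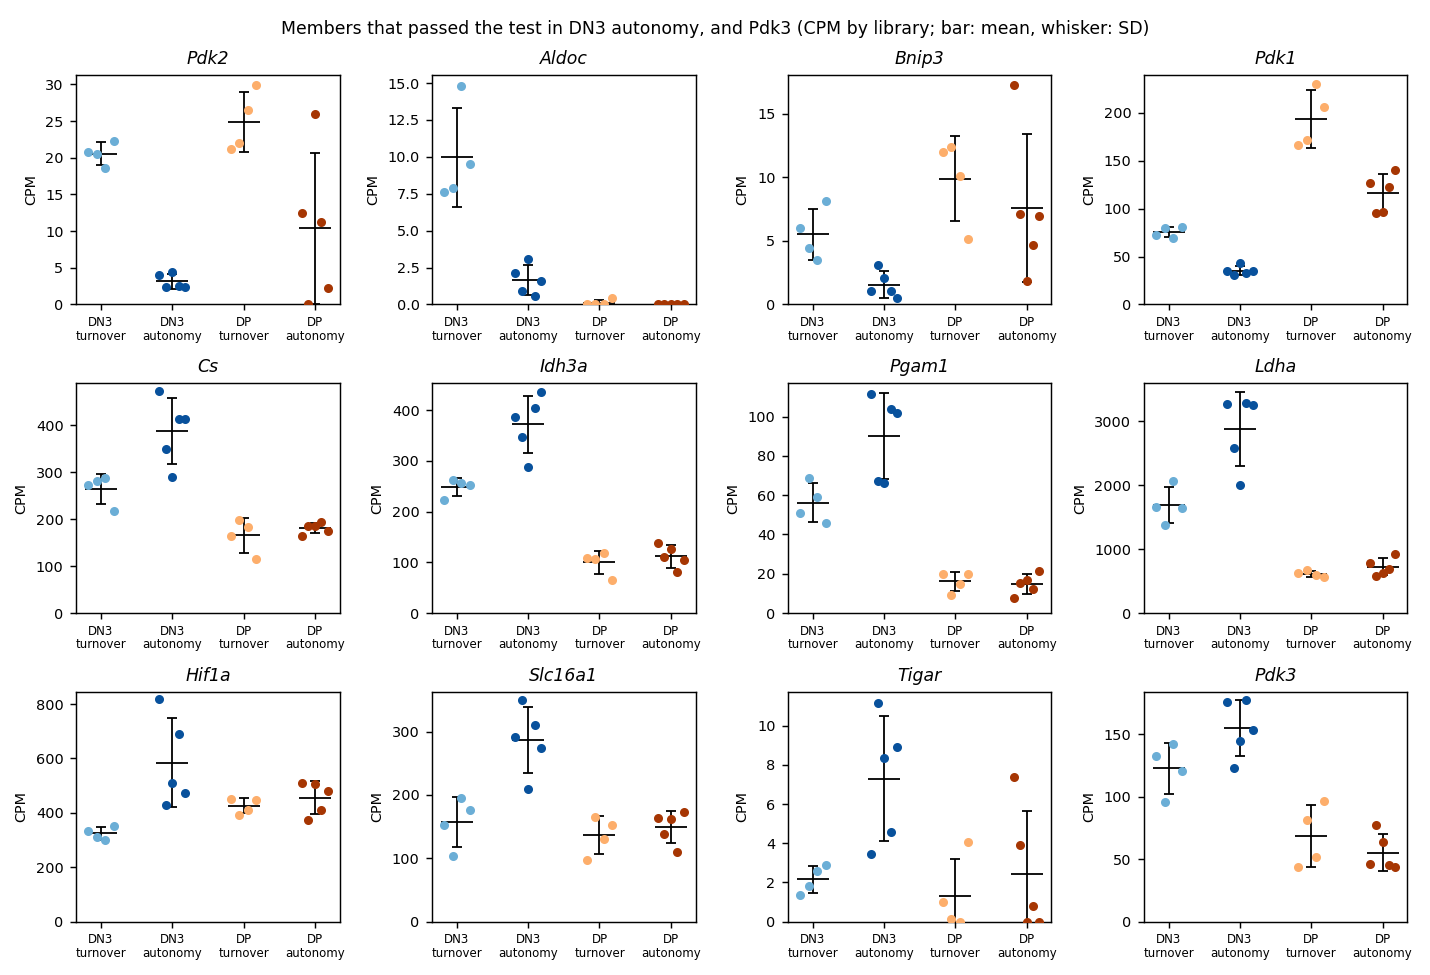
CPM by library (points) in the 4 groups for the 11 members that passed the test in DN3 cells and for Pdk3, with the mean (bar) and SD (whisker); each panel has its own y axis from 0. Pdk2, Aldoc, Bnip3 and Pdk1 lie lower in DN3 autonomy than in DN3 turnover, and the other members that passed lie higher.

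The calls of Pdk1, Pdk2, Aldoc and Hif1a held when any single DN3 library was left out. The other 7 each lost their call, with the same direction, without some library. Ldha and Slc16a1 lost it without turnover library RP1140A (adjusted p 0.0523 and 0.0513), and Idh3a without that library or autonomy library RP1137 or RP1138 (0.0759, 0.0531 and 0.0526). Tigar lost it without RP1140A or RP1140B of turnover or autonomy library RP1134 or RP1138 (0.0846, 0.0649, 0.0516 and 0.0655). Pgam1 kept its call in 3 of 9 such fits, without RP1140B, RP1134 or RP1135, and in the others its adjusted p ran from 0.0648 to 0.116. Cs kept it in 2 of 9, without RP1134 or RP1135, and ran from 0.052 to 0.09 in the others, and Bnip3 kept it in 1 of 9, without RP1134, and ran from 0.0534 to 0.12. The count of members that rose was 1 without RP1140A, 4 without RP1137 and 3 without RP1138. Summing the A and B libraries of each number kept the calls of Pdk1, Pdk2 and Aldoc alone.

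Markers of other cell types also differed between the DN3 groups, and their part in these results was not tested. The 7 macrophage markers summed to 22.3 to 38.1 CPM in turnover and 5.76 to 17.4 CPM in autonomy, most of it Lyz2, with Adgre1 and Csf1r at or near 0 in both. The 6 dendritic cell markers summed to 13.1 to 29.7 CPM in turnover and 2.53 to 10.3 CPM in autonomy, most of it H2-Ab1, with Itgax and Siglech at or near 0. The 6 B cell markers summed to 52.3 to 91.5 CPM and 13.5 to 42.2 CPM, nearly all of it Cd79b, with Ms4a1 at 0 in every library. The 9 markers of thymic epithelium and stroma summed to 180.1 to 214.7 CPM and 73.5 to 140.2 CPM, nearly all of it Epcam and Pecam1, with Krt5 at 0. The 6 granulocyte and mast cell markers summed to 50.4 to 120.1 CPM and 3.03 to 27.2 CPM, nearly all of it Cpa3, with S100a8 and Mpo at or near 0. The 6 NK markers summed to 1226 to 1704 CPM in turnover and 1833 to 2523 CPM in autonomy, nearly all of it Gzma, with Klrb1c and Ncr1 at or near 0.

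In DP cells, autonomy went with a higher level of Ldhb and with lower levels of Tpi1, Tkt and Pdk1. Of the 33 members tested, 1 rose, 3 fell and 29 did not pass. Among the 10339 genes tested, 0.861% rose and 0.861% fell, 1.72% in all. The median log2 change was -0.12 over the members tested and -0.02 over all genes tested. Hk2, Aldoc and Tigar did not pass the filter on low counts in DP cells. The groups did not overlap for 6 members, the 4 that passed with Gpi1 and Gapdh, beside 8.18% of all genes tested.

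Ldhb was at 1058, 952, 965 and 911 CPM in DP turnover and 1988, 2037, 1703, 1701 and 1545 CPM in DP autonomy. Every autonomy library lay well above every turnover library, and the log2 change was 0.87 (SE 0.10, adjusted p 0.00262). Tpi1, the isomerase that joins the products of aldolase into a single stream, was at 78.3, 88.1, 69.1 and 58.3 CPM in turnover and 40.7, 23.3, 24.8, 19.7 and 27.2 CPM in autonomy. All autonomy libraries lay below all turnover libraries, and the log2 change was -1.45 (SE 0.26, adjusted p 0.0163). Tkt, the transketolase that returns pentose phosphates to glycolysis, was at 190.1, 247, 193 and 182 CPM in turnover and 91.9, 111, 117, 122 and 119 CPM in autonomy. Again the groups did not overlap, and the log2 change was -0.87 (SE 0.15, adjusted p 0.0163). Pdk1 was at 166, 172, 229.9 and 206 CPM in turnover and 127, 95.1, 97.0, 122 and 141 CPM in autonomy. Its groups did not overlap, and the log2 change was -0.75 (SE 0.17, adjusted p 0.046). Pdk1 thus fell in autonomy at both stages.

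Among the 29 members tested in DP cells that did not pass, Gpi1 and Gapdh came nearest to the threshold. Gpi1, which interconverts glucose 6-phosphate and fructose 6-phosphate, had a log2 change of -0.61 (SE 0.17, adjusted p 0.0807), and Gapdh, the dehydrogenase that makes glycolytic NADH, of -0.92 (SE 0.27, adjusted p 0.0996). Pdk2 was uneven in DP autonomy, at 12.5, 0, 26.0, 11.2 and 2.27 CPM against 21.1, 22.0, 26.4 and 29.8 CPM in turnover. Its autonomy libraries ran from 0 to a level within the turnover range, and the log2 change was -1.27 (SE 0.87, adjusted p 0.512). Hk1 had a log2 change of 0.74 (SE 0.30, adjusted p 0.224). Hif1a had levels of 451, 394, 411 and 448 CPM in turnover and 511, 372, 507, 409 and 479 CPM in autonomy, which overlap, with a log2 change of 0.09 (SE 0.12, adjusted p 0.789). Ldha, Slc16a1, Cs and Idh3a had DP log2 changes of 0.23, 0.12, 0.11 and 0.15, with adjusted p from 0.427 for Ldha to 0.823 for Slc16a1. Bnip3 had a DP log2 change of -0.40 (SE 0.63, adjusted p 0.809) and Pgam1 of -0.14 (SE 0.41, adjusted p 0.908). The other 18 members tested lay between a DP log2 change of -2.86 for Slc16a3 (SE 1.34, adjusted p 0.3) and 0.47 for Slc2a3 (SE 0.82, adjusted p 0.827).

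**Figure D3:**
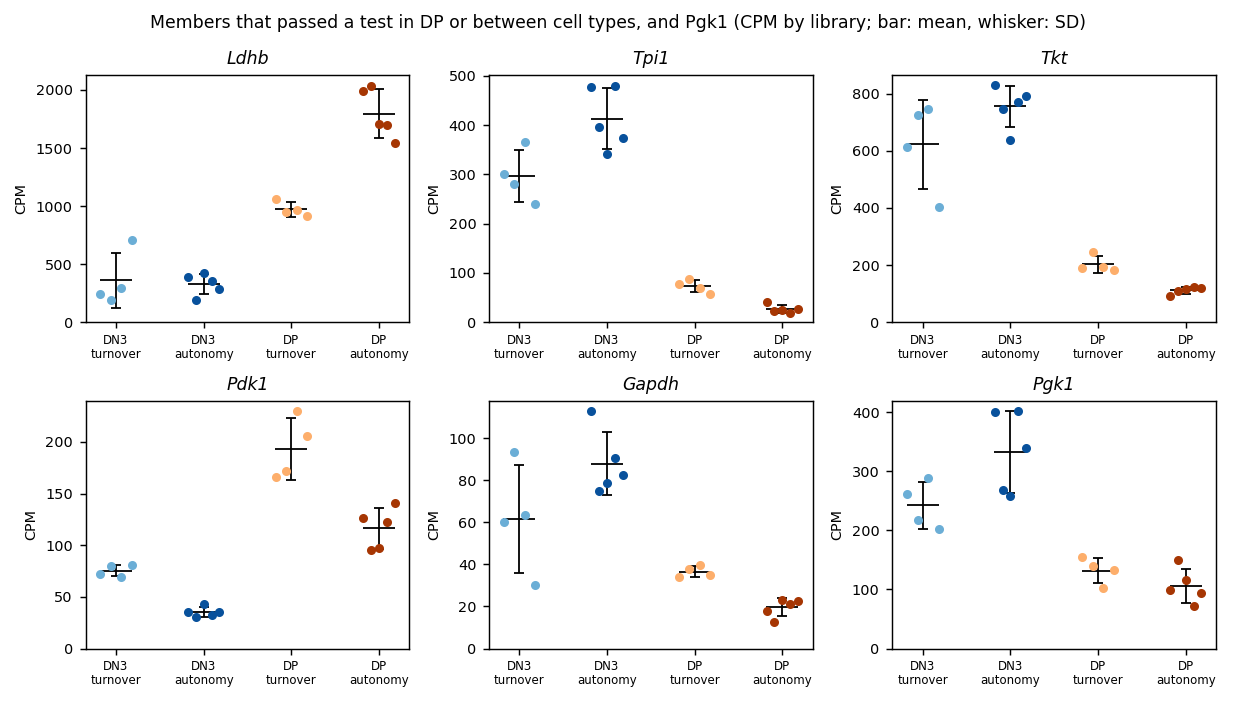
CPM by library (points) in the 4 groups for the members that passed the test in DP cells (Ldhb, Tpi1, Tkt, Pdk1), for Gapdh, which passed the test of the difference between cell types, and for Pgk1, with the mean (bar) and SD (whisker); each panel has its own y axis from 0. Ldhb lies higher in DP autonomy than in any other group, and Tpi1, Tkt and Gapdh lie lowest there.

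Ldhb kept its DP call when any library was left out. Tpi1 and Tkt lost theirs without turnover library RP1140B (adjusted p 0.0709 and 0.0697). Pdk1 kept its call in 1 of 9 such fits, without autonomy library RP1138, and its adjusted p in the others ran from 0.0531 to 0.135. Without RP1140B, edgeR called 0 members lower in DP cells, with 33 genes called in all, and DESeq2 with every library called 5 members lower and limma voom 4. Among markers of other cell types, the 7 macrophage markers summed to 3.39 to 35.6 CPM in DP turnover and 20.7 to 137.0 CPM in DP autonomy, and the 6 dendritic cell markers to 5.95 to 18.7 CPM and 7.11 to 181.3 CPM, and their part in these results was not tested.

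Whether the autonomy effect differed between the cell types was tested in a single model of all 18 libraries. Of the 36 members, 3 had a lower autonomy effect in DP than in DN3 cells, and 0 had a higher one. Among the 11521 genes tested, 2.61% had a lower and 2.88% a higher effect in DP cells, 5.49% in all. The median difference was -0.43 over the members and 0.06 over all genes tested. At an unadjusted p under 0.05 there were 9 members with a lower and 2 with a higher effect in DP cells. The share of all genes at that looser threshold was not taken, so these counts have no background here. With adjustment, limma voom and DESeq2 also called 0 members higher.

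The 3 members were Tpi1, Tkt and Gapdh, with differences of -1.93 (SE 0.27, adjusted p 0.000402), -1.14 (SE 0.23, adjusted p 0.00584) and -1.41 (SE 0.36, adjusted p 0.0232) on the log2 scale. In DN3 cells Tpi1 stood at 301, 281, 365 and 239.7 CPM in turnover and 476, 396, 341, 479.7 and 373 CPM in autonomy, against the fall seen in DP cells. Tkt was at 613, 725, 746 and 405 CPM in DN3 turnover and 830.1, 748, 639, 769 and 792 CPM in DN3 autonomy, with overlapping groups. Gapdh was at 60.1, 93.3, 63.4 and 30.4 CPM in DN3 turnover and 113, 75.1, 78.8, 90.7 and 82.6 CPM in DN3 autonomy, also with overlap. In DP cells, Gapdh was at 33.8, 37.6, 39.7 and 35.1 CPM in turnover and 18, 12.9, 23.3, 21.1 and 22.5 CPM in autonomy, where every autonomy library was below every turnover library. The difference for Gapdh lost its call without DN3 turnover library RP1140A (adjusted p 0.0518), and those for Tpi1 and Tkt kept theirs when any library was left out. Without DN3 turnover library RP1141B, the differences were -1.86 for Tpi1, -0.997 for Tkt and -1.21 for Gapdh (edgeR adjusted p 0.000973, 0.00641 and 0.0343). The DN3 log2 changes without it were 0.38, 0.12 and 0.28 in the same order, beside 0.47, 0.27 and 0.50 with all libraries.

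For the other members called in DN3 or DP cells, the difference was not called. Hif1a came nearest at -0.75 (SE 0.23, adjusted p 0.066), followed by Slc16a1 at -0.74 (SE 0.28, adjusted p 0.141), Ldhb at 1.01 (SE 0.40, adjusted p 0.151) and Ldha at -0.54 (SE 0.23, adjusted p 0.192). Without DN3 turnover library RP1141B, the difference for Ldhb was 0.43 (adjusted p 0.447). Pdk2 had a difference of 1.45 (SE 1.04, adjusted p 0.478), Bnip3 of 1.44 (SE 0.87, adjusted p 0.385) and Pdk1 of 0.36 (SE 0.23, adjusted p 0.401). The difference for Hif1a was called by DESeq2 (adjusted p 0.0228) and by edgeR without DN3 autonomy library RP1134 (adjusted p 0.0232).

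The step from DN3 to DP was compared within each condition, in the same model. These comparisons share libraries with those above. In turnover, 3 of the 36 members were higher in DP cells and 17 lower, beside 15.8% higher and 19.1% lower among the 11521 genes tested, 34.9% in all. In autonomy, 3 members were higher and 22 lower, beside 23.7% and 25.2% of all genes tested, 49.0% in all. The median log2 change, DP over DN3, was -0.73 in turnover and -1.06 in autonomy over the members, and -0.04 and -0.00 over all genes tested. The DP and DN3 groups did not overlap for 16 members in turnover and for 20 in autonomy, beside 34.7% and 37.9% of all genes tested.

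By role, 11 of the 18 genes of transport and glycolysis were lower in DP cells in turnover and 12 in autonomy, and Pfkp was higher in turnover. Of the 6 pentose phosphate genes, 2 were lower in turnover and 4 in autonomy, and both citrate cycle members were lower in both conditions. Of the 8 genes of pyruvate and lactate handling, Ldhb and Pdk1 were higher in both conditions, Ldha and Pdk3 lower in both, and Pdha1 and Slc16a1 lower in autonomy. Of these calls, those of Gapdh and Hk1 in turnover and of Eno1 and Pdha1 in autonomy were lost in 6 of 8, 5 of 8, 7 of 10 and 3 of 10 fits that each left out a library, with adjusted p up to 0.156, 0.114, 0.194 and 0.0833.

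Ldhb and Pdk1 were higher in DP cells in both conditions. Ldhb stood at 246, 188, 293 and 712 CPM in DN3 turnover and 389.8, 196, 421, 351 and 287 CPM in DN3 autonomy, below all DP values given above. Its log2 change was 1.43 (SE 0.30, adjusted p 0.00105) in turnover and 2.45 (SE 0.28, adjusted p 4.96e-07) in autonomy. The highest DN3 value, 712 CPM, was in turnover library RP1141B, which also had the highest sum of DP stage genes, and without it the turnover log2 change of Ldhb was 2.03. Pdk1 had a log2 change of 1.36 (SE 0.17, adjusted p 5.7e-06) in turnover and 1.72 (SE 0.15, adjusted p 2.38e-08) in autonomy. Pfkp was at 77.0, 65.3, 83.5 and 128 CPM in DN3 turnover and 169, 152, 137 and 113 CPM in DP turnover, where the ranges overlapped through RP1141B on the DN3 side, and its log2 change was 0.69 (SE 0.20, adjusted p 0.0112). In autonomy, Pfkp had a log2 change of 0.13 (SE 0.18, adjusted p 0.563). Bnip3 was at 12.0, 12.4, 10.1 and 5.13 CPM in DP turnover and 17.2, 7.12, 1.87, 4.71 and 6.95 CPM in DP autonomy. Its log2 change was 2.28 (SE 0.61, adjusted p 0.00419) in autonomy, with overlap through DP library RP1136, and 0.84 (SE 0.65, adjusted p 0.343) in turnover.

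Tpi1 had the widest measured gap of the members with reads in every group, with a log2 change of -2.01 (SE 0.21, adjusted p 6.31e-07) in turnover and -3.94 (SE 0.20, adjusted p 7.11e-11) in autonomy. Tkt followed in autonomy with -2.75 (SE 0.16) and stood at -1.61 (SE 0.17) in turnover. Pgam1 was at 20.1, 9.37, 15.0 and 19.7 CPM in DP turnover and 7.77, 15.2, 16.7, 12.4 and 21.3 CPM in DP autonomy. Both ranges were far below the DN3 levels, and the log2 change of Pgam1 was -1.82 (SE 0.30) in turnover and -2.62 (SE 0.28) in autonomy. Ldha was at 630.2, 671, 591 and 561 CPM in DP turnover and 778, 587, 633, 695 and 927 CPM in DP autonomy, and its log2 change was -1.46 (SE 0.17) in turnover and -1.99 (SE 0.16) in autonomy. These 4 genes passed the test in both conditions.

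Hk2 and Aldoc were nearly absent from DP cells. Hk2, the inducible hexokinase, had 0 reads in every DP turnover library, so its DN3 turnover level was at least 10.6-fold higher, taking 3 counts per library as the floor. In DP autonomy, Hk2 had reads in RP1133 alone, at 0.758 CPM. Aldoc had 0 reads in every DP autonomy library, so its DN3 autonomy level was at least 4.62-fold higher, and in DP turnover it had reads in RP1141B alone, at 0.419 CPM. These floors cover counting error only.

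**Figure D4:**
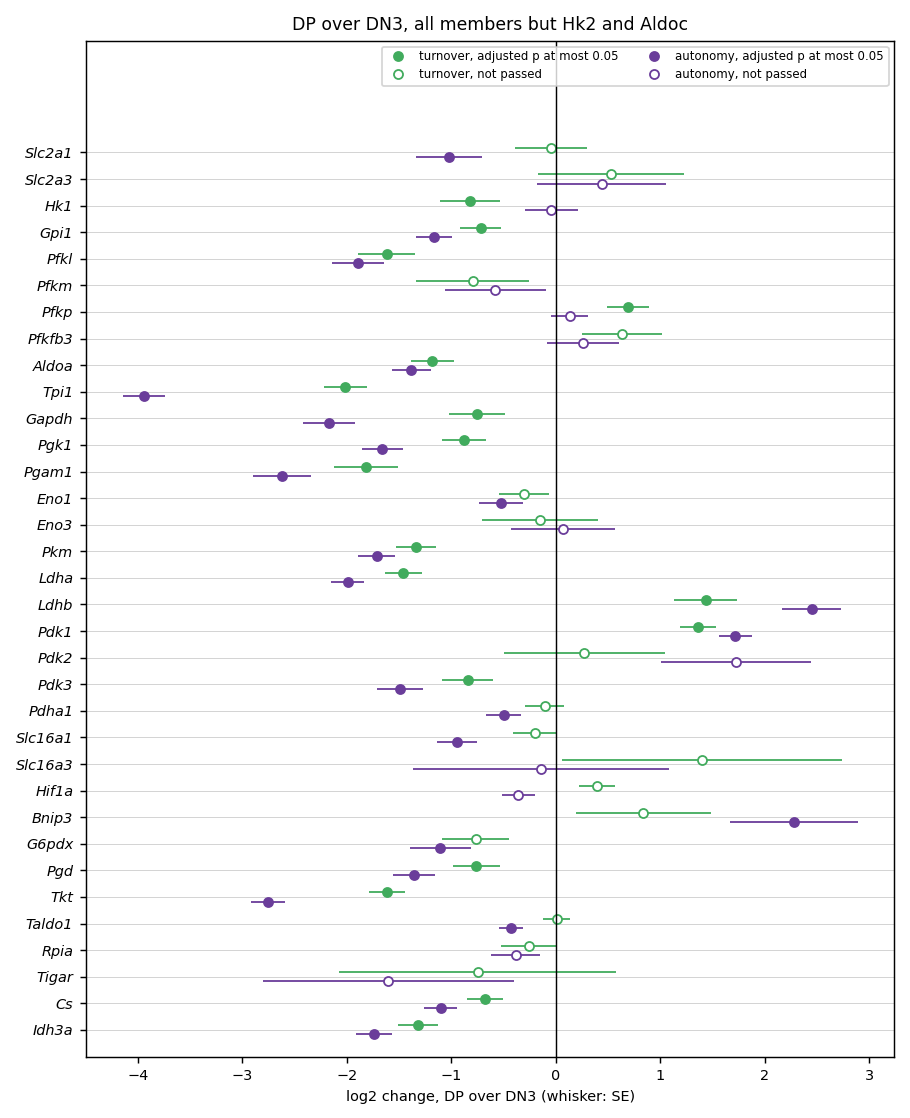
Log2 change of DP over DN3 (x axis, whisker: SE) in turnover (green) and autonomy (purple) for 34 members; Hk2 and Aldoc are left out because they had no reads in a DP group. Filled points are at an adjusted p of at most 0.05; Ldhb and Pdk1 lie right of 0 in both conditions, and most filled points lie left of it.

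The levels of isozymes were set beside each other per length, as CPM per kilobase of the longest coding transcript. These families were chosen after their values were seen, and the shares are a description with no test. Ldhb made up 21.8% ± 10.6 (SD, n = 4) of lactate dehydrogenase transcripts in DN3 turnover, 14.0% ± 5.1 (SD, n = 5) in DN3 autonomy, 68.8% ± 1.63 (SD, n = 4) in DP turnover and 77.4% ± 4.72 (SD, n = 5) in DP autonomy. Ldha thus gave most lactate dehydrogenase transcripts in DN3 cells and Ldhb in DP cells, and protein was not measured. The Ldhb share in RP1141B was 37.7%, the highest among DN3 libraries, and without that library the DN3 turnover share was 16.5% ± 0.553 (SD, n = 3), a value added after the data were seen.

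Pdk3 made up most PDK transcripts in DN3 cells, with 70.6% ± 4.7 (SD, n = 4) in turnover and 89.8% ± 1.84 (SD, n = 5) in autonomy. In DP cells its share was 39.3% ± 8.67 (SD, n = 4) in turnover and 48.7% ± 10.5 (SD, n = 5) in autonomy. The Pdk1 share was 18% ± 3.1 in DN3 turnover, 8.47% ± 1.41 in DN3 autonomy, 46.9% ± 7.5 in DP turnover and 42.9% ± 10.4 in DP autonomy. Pdk2 held 11.3% ± 1.64 in DN3 turnover and 1.73% ± 0.532 in DN3 autonomy. From DN3 turnover to DN3 autonomy, the mean CPM per kilobase went from 14.5 to 6.80 for Pdk1 and from 9.15 to 1.40 for Pdk2. That of Pdk3, which did not pass the test, went from 58.0 to 73.1. Pdk4, the fourth kinase of the family, had no reads in any library. Among phosphofructokinases, the liver type Pfkl held 62.4% ± 4.84 in DN3 turnover, 48.5% ± 5.08 in DN3 autonomy, 29.1% ± 6.79 in DP turnover and 19.7% ± 6.18 in DP autonomy. Pfkp held 27.1% ± 5.49, 42.7% ± 4.01, 62.6% ± 1.15 and 71.4% ± 9.41 in the same order, and the muscle type Pfkm 8.29% to 10.5% on average. The shares depend on the length used. Per length of all exons joined, the mean Pfkp share was 16.1%, 27.6%, 45.3% and 55.1% in the same order, that of Pfkl 66.6%, 56.5%, 38.3% and 26.9%, and that of Pfkm 15.9% to 18.1%. On that scale the mean Ldhb share was 29.3%, 19.7%, 77.0% and 83.8%. The mean Pdk3 share was then 74.4%, 91.5%, 44.0% and 53.6%, so that in DP turnover it lay above the 42.6% of Pdk1, the reverse of the order per transcript length.

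**Figure D5:**
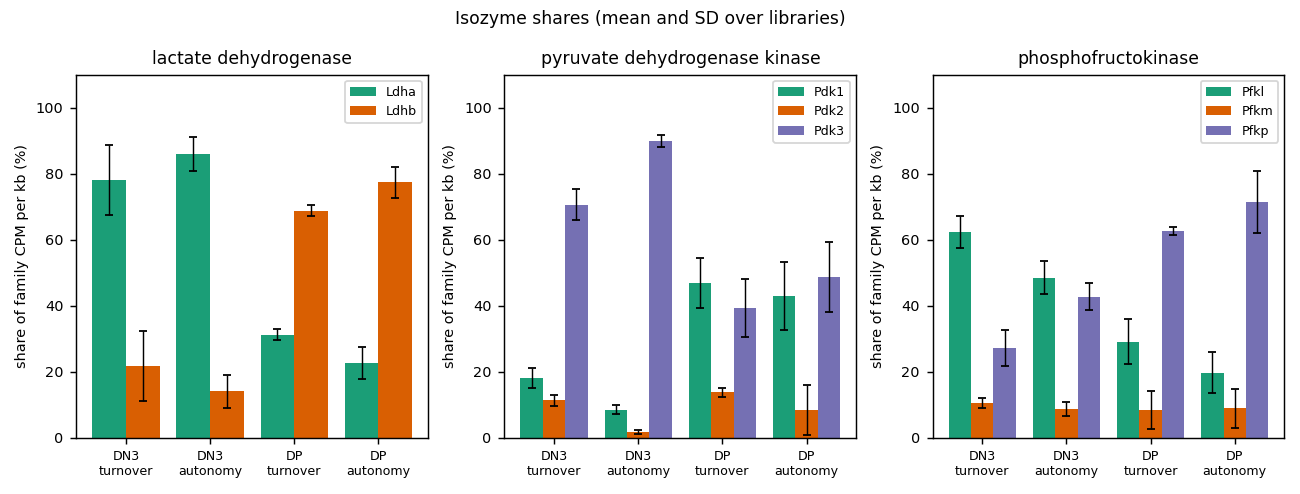
Share of each isozyme in the summed CPM per kilobase of its family (y axis, percent) in the 4 groups, for lactate dehydrogenase, PDK and phosphofructokinase; bars are means and whiskers SDs over 4 turnover or 5 autonomy libraries. Ldhb passes Ldha in DP cells, Pdk3 reaches 89.8% in DN3 autonomy, and Pfkp passes Pfkl in DP cells.

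The other genes of these pathways were followed as 5 lists. In DN3 autonomy, 2 of 14 tested genes of glycolysis outside the members rose and 2 fell, beside 6.53% and 8.35% of all genes tested. No list was tested as a set. The gluconeogenic fructose bisphosphatase Fbp1 had a log2 change of 3.04 (SE 0.41, adjusted p 0.000841) and the mitochondrial glycerol phosphate dehydrogenase Gpd2 of 0.99 (SE 0.22, adjusted p 0.0115). The mutases Pgam2 and Pgm1 had log2 changes of -1.95 (SE 0.41, adjusted p 0.00834) and -0.68 (SE 0.22, adjusted p 0.0498). Of 17 other genes of pyruvate and lactate handling, the malic enzyme Me2 rose by 0.88 (SE 0.23, adjusted p 0.0208) and Dld, a shared subunit of the pyruvate and oxoglutarate dehydrogenases, by 0.59 (SE 0.17, adjusted p 0.0364). Pck2, the mitochondrial phosphoenolpyruvate carboxykinase, fell with a log2 change of -2.39 (SE 0.37, adjusted p 0.00163). Of 7 other pentose phosphate genes, 1 rose, the ribose phosphate pyrophosphokinase Prps2, by 0.64 (SE 0.15, adjusted p 0.016).

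Of 23 other citrate cycle genes, 2 rose and 2 fell in DN3 autonomy, beside 6.53% and 8.35% of all genes tested. Got2 and Ogdh had log2 changes of 0.52 (SE 0.16, adjusted p 0.0478) and 0.45 (SE 0.14, adjusted p 0.0498). The NADP-dependent isocitrate dehydrogenases Idh2 and Idh1 had log2 changes of -0.71 (SE 0.14, adjusted p 0.00712) and -0.95 (SE 0.25, adjusted p 0.0234), opposite in sign to Idh3a. The median log2 change of this list was 0.23. Of 19 other hypoxia pathway genes, 1 rose and 2 fell, and the list's median was -0.61, beside -0.05 over all genes tested. Ero1l, an oxidase of the endoplasmic reticulum, had a log2 change of 0.90 (SE 0.20, adjusted p 0.00999), and Bnip3l, the close relative of Bnip3, of -0.89 (SE 0.18, adjusted p 0.00633). Narf, a gene known to rise in hypoxia, had a log2 change of -0.70 (SE 0.21, adjusted p 0.0428).

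Left-out libraries ended several of these calls. Fbp1, Gpd2, Pgam2, Pck2, Prps2, Idh2, Ero1l and Bnip3l kept theirs without any single DN3 library. Me2 lost its call without RP1140A or RP1140B of turnover or autonomy library RP1137 (adjusted p 0.064, 0.0564 and 0.0528), and Idh1 without turnover library RP1140A or RP1141B or autonomy library RP1137 or RP1138 (0.0847, 0.0629, 0.0649 and 0.0518). Dld, Got2 and Ogdh each kept their call in 2 of 9 such fits, Narf in 1 and Pgm1 in 0, and without turnover library RP1140A their adjusted p was 0.0693, 0.124, 0.0847, 0.0614 and 0.0997.

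In DP autonomy, edgeR called 0 genes of these 5 lists, beside 1.72% of all genes tested. At an unadjusted p under 0.05 there were 0 of 14 in glycolysis, 2 of 14 in pyruvate and lactate handling and 1 of 8 in the pentose phosphate pathway. There were 2 of 23 in the citrate cycle and 3 of 17 in the hypoxia pathway. The share of all genes at that looser threshold was not taken, so these counts have no background here. DESeq2 called Mpc2, Mdh2, Bnip3l and Higd1a, all higher, and limma voom called Mpc2, Bnip3l and Higd1a.

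Bnip3l differed between the cell types in its autonomy effect by 1.46 (SE 0.22, adjusted p 0.000682), DP minus DN3. It was at 129.7, 103, 122 and 169 CPM in DN3 turnover and 67.7, 81.2, 81.3, 62.9 and 61.4 CPM in DN3 autonomy, with no overlap. In DP cells it stood at 145, 135, 171 and 185 CPM in turnover and 227, 261, 241, 221 and 231 CPM in autonomy, also with no overlap and in the opposite direction. Fh1, the fumarase of the citrate cycle, had a difference of -0.83 (SE 0.23, adjusted p 0.0371), the only other call in these lists. It kept its call in 6 of 18 fits that each left out a library, and its adjusted p in the others ran from 0.0516 to 0.0717.

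Between DN3 and DP cells, most of the citrate cycle list was lower in DP cells. Of its 23 genes, 0 were higher and 15 lower in DP cells in turnover, and 1 was higher and 20 lower in autonomy. Among all genes tested, 15.8% were higher and 19.1% lower in turnover, and 23.7% and 25.2% in autonomy. Idh2, Slc25a1 (the mitochondrial citrate carrier) and Suclg1 had the smallest adjusted p in turnover, with log2 changes of -0.95 (SE 0.13), -2.09 (SE 0.31) and -0.92 (SE 0.14). Fh1, Got2 and Suclg1 had the smallest in autonomy, with log2 changes of -1.89 (SE 0.16), -2.37 (SE 0.24) and -1.26 (SE 0.13), and Idh1 was the gene that was higher, by 0.75 (SE 0.29, adjusted p 0.0396). Of 18 other genes of pyruvate and lactate handling, 2 were higher and 3 lower in turnover, and 2 were higher and 8 lower in autonomy. Pdpr, a subunit of the phosphatase that reactivates pyruvate dehydrogenase, was higher in both conditions, by 1.32 (SE 0.40) and 1.38 (SE 0.36). Bsg, the chaperone of MCT1, and Pdhx were lower in turnover by log2 changes of -0.63 (SE 0.18) and -0.85 (SE 0.25), and Me2 and Dlat in autonomy by -1.29 (SE 0.21) and -1.42 (SE 0.24). Pck2 had 0 reads in every DP autonomy library, so its DN3 autonomy level was at least 18-fold higher. The malic enzyme Me1 had reads in DP turnover library RP1141B alone among turnover libraries, at 16.8 CPM, and its turnover call rested on that library. The turnover call of Pdpr was lost without DN3 library RP1141A (adjusted p 0.0541) and that of Bsg without DN3 library RP1141B (0.054), and the autonomy call of Idh1 in 6 of 10 fits that each left out a library (0.0537 to 0.111).

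Of 16 other glycolysis genes, 0 were higher and 2 lower in DP cells in turnover, and 3 were higher and 4 lower in autonomy. The shares of all genes tested were again 15.8% and 19.1% in turnover, and 23.7% and 25.2% in autonomy. The ADP-dependent glucokinase Adpgk was lower in both, with a log2 change of -1.16 (SE 0.23) in autonomy. Of 8 other pentose phosphate genes, 2 were higher and 2 lower in turnover, and 1 was higher and 4 lower in autonomy, with Pgls lower by -1.26 (SE 0.19) and -1.57 (SE 0.17) and Prps1 by -1.26 (SE 0.22) and -1.84 (SE 0.20). The hypoxia list was mixed, with 5 of 19 genes higher and 3 lower in turnover and 9 higher and 5 lower in autonomy. Narf was higher by 1.52 (SE 0.20) and 2.26 (SE 0.18) and the histone demethylase Kdm3a by 1.39 (SE 0.27) and 2.04 (SE 0.25). The carbonic anhydrase Car12 had 0 reads in every DP library, so its DN3 level was at least 69.7-fold higher in turnover and at least 49.2-fold higher in autonomy.

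Some members share sequence with other genes, and their counts are less certain. For these members, stretches of 50 bases in the longest coding transcript also occur in transcripts of other genes. The share of such stretches was 82.5% for Gapdh, 72.2% for Eno1, 68.0% for Pgk1, 62.4% for Bnip3 and 41.5% for Pgam1. It was 34.4% for Pkm, 27.0% for Ldhb, 25.3% for Gpi1, 17.1% for Pfkp, 16.9% for Pdha1 and 16.6% for Ldha. The other members had at most the 13.5% of Aldoa. For Pdk1, Pdk2, Pdk3, Aldoc, Tkt, Slc16a1 and Idh3a the share was 0. The sources used here do not say if reads were counted by strand. Genes on the opposite strand overlap Tpi1 (Spsb2), Gapdh (Iffo1), Pdk2 (Gm11513), Hif1a (Gm15283), Tigar (Platr31), Bnip3 (Gm45507 and Gm18258) and Pfkp (Pitrm1). Slc2a1, Hk1, Hk2, Gpi1, Pfkm, Pfkfb3, Aldoa, Pdha1 and G6pdx are overlapped in the same way. On the same strand, other annotated genes overlap Slc16a1 (Gm43581 and Gm43585), Hif1a (Gm49321), Tkt (Mir3076), Cs (Gm23182) and Pkm (Gm49759). Slc2a1, Slc2a3, Pfkm and Pfkfb3 also have a same-strand overlap. Reads of all these pairs may not be told apart. On GRCm38, Pdk2 lies at chr11:95026258-95041354 on the minus strand, Pdk1 at chr2:71873224-71903858 on the plus strand, Ldhb at chr6:142490249-142507957 on the minus strand and Tpi1 at chr6:124810586-124814296 on the minus strand.

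The authors' deposited table for DN3 cells, autonomy over turnover, called 9 members higher and 4 lower at an adjusted p of 0.05, among 2377 genes in all. The authors' deposited table for DP cells called 1 member higher and 5 lower, among 854 genes. The share of all genes called in these tables was not taken, so the member counts have no background here. All 11 members called here in DN3 cells and all 4 called in DP cells are among those called there. Both sets of calls come from the same libraries, so they are not independent.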

How the data were processed

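Reads were aligned with HISAT2 and counted with featureCounts on mm10 (GRCm38), per the submitters' processing notes, with versions not given. The authors deposited raw read counts per gene for all 18 libraries. Per the file headers, their tables for DN3 and DP cells give a mean normalized count (a signal), a log2 fold change with its standard error, a Wald statistic (a score) and p-values. The counts were tested here in edgeR 4.0.16 (quasi-likelihood test, R 4.3.3), after TMM scaling and edgeR's filter on low counts, with Benjamini-Hochberg adjustment and a threshold of 0.05. Each cell type had its own fit of autonomy over turnover, and the difference and the stages in a model of all 18 libraries. CPM values were scaled over all 18 libraries. DESeq2 1.42.0, limma 3.58.1 voom, other scaling, no filter, summed A and B libraries, a replicate block and left-out libraries were the alternatives. The edgeR fit of each comparison was tried on simulated data. Those data held far fewer changed genes than were called here in DN3 cells and between the stages, and fewer than for the difference. The alternatives were not tried in this way. Members and lists were chosen with earlier results of these data known; all members were examined, and of each other list up to 3 called genes per direction were named, by smallest adjusted p. Depth limits genes with few reads, where 3 counts were taken as the floor; floors cover counting error only.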

Additional observations from a re-analysis of the deposited data

Results flagged for a closer look

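Among 142 groups of library values of the members that were screened, 5 held a library far from the others of its group, and chance gives about 1 in 20. Slc2a3 was at 5.86 CPM in DN3 autonomy library RP1135 and at 8.34 to 9.30 CPM in the other libraries of the group. Hk2 was at 0.758 CPM in DP autonomy library RP1133, and Aldoc at 0.419 CPM in DP turnover library RP1141B, with 0 reads in the other libraries of each group. Slc16a3 was at 1.77 CPM in DP autonomy library RP1136 and at 0 to 0.289 CPM in the others. Taldo1 was at 286 CPM in DP autonomy library RP1135 and at 236 to 246 CPM in the others.

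The autonomy effect differed between DP and DN3 cells, by edgeR's test of the difference, for 5 of the genes named. The log2 difference, DP minus DN3, was -1.93 for Tpi1, -1.41 for Gapdh, -1.14 for Tkt, -0.83 for Fh1 and 1.46 for Bnip3l.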

How the results depend on the processing

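With libraries left out in turn, the members higher in DN3 autonomy numbered 1 to 10 (7 with all libraries), those lower 3 to 4, and all genes called 811 to 1784 (1602). In DP cells the members lower numbered 0 to 3 (3), and all genes called 33 to 252 (178). The members with a lower autonomy effect in DP cells numbered 2 to 4 (3). Summing the A and B libraries gave 0 members higher and 507 genes called in DN3 cells, 0 members lower and 16 genes in DP cells, 145 genes for the difference (633), and, for DP over DN3 in turnover, 11 members lower (17) and 2170 genes (4021). A fit of all 18 libraries gave 2 members lower and 1006 genes in DN3 cells, and 0 members higher and 279 genes in DP cells. DESeq2 called 5 members lower and 736 genes in DP cells and 1037 genes for the difference, and limma voom 434 genes in DP cells. With libraries left out, the fitted log2 change of Me1, DP over DN3 in turnover, ran from 0 without DP library RP1141B to 9.13 without DP library RP1140A. With every library it was 23.1 in DESeq2 (adjusted p 2.05e-19) and 1.75 in limma voom (adjusted p 0.442). None of these values is a bound because DN3 turnover had no reads of Me1. Calls of the members that held under every alternative numbered 2 of 11 in DN3 cells (Pdk1 and Pdk2), 0 of 4 in DP cells, 2 of 3 for the difference (Tpi1 and Tkt), 13 of 20 for the stages in turnover and 22 of 25 in autonomy, and 0 changed sign. With the RP number as a replicate block, 291 genes were called for the difference, with 0 members higher and 3 lower. Deviations of DN3 and DP libraries with the same number correlated at -0.017 to 0.027 in turnover and -0.035 to 0.059 in autonomy (4 pairs each). Such deviations may be mostly noise of each library, so they cannot show whether libraries with the same number share a graft. The main tests treated these libraries as separate, with the block as the alternative. The median log2 change of all genes, DP over DN3 in autonomy, was -0.12 with limma voom and -0.14 with the block, beside -0.00. The causes of these changes were not tested. Depth limits genes with few reads, such as Hk2, Aldoc, Tigar and Slc16a3.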
